A study of Mus musculus with 4 samples.

Results

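The nuclear-encoded subunits of the oxidative phosphorylation machinery were followed in HT22 cells, an immortalised line derived from mouse hippocampal neurons, whose level of the long noncoding RNA Ntoco had been changed. The members were taken by symbol from the deposited gene table. They were the Nduf subunits of complex I, the Sdh subunits of complex II and the Uqcr subunits of complex III. Complex IV gave the symbols Cox4 to Cox8 followed by a, b or c, and complex V the Atp5 subunits. The rule gave 85 of the 16846 listed genes, and 83 of them had enough reads to be tested, among 12115 tested genes. Cox6b2 and Cox8b, isoforms of complex IV, were listed with 1 and 3 reads in all 8 libraries together and could not be tested. Cox4i1, Cox4i2, Ndufab1 and Cyc1 are structural subunits whose symbols the rule does not match, and 0 mitochondrially encoded genes were listed.

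HT22 cells of 4 groups were compared: cells with a non-targeting hairpin (the shRNA control), cells with a hairpin against Ntoco (the knockdown), cells with vector alone (the vector control), and cells given extra Ntoco, with the mark Lv in the label (the overexpression). The labels list 1 sample per group, and the table has 2 numbered columns per group, so each group here has 2 libraries (n = 2). Nothing in the labels says that the libraries came from separate cultures, so a p-value refers to the spread between these libraries alone, and that spread may be technical; in bulk RNA, fewer expressing cells and less RNA per cell cannot be told apart. The columns abbreviate the target as AK, which the labels do not explain, and call the vector pcDNA; no other treatment is given. The cell line field of the labels gives HT22 for all 4 groups, but the sample titles number the cells from HT22 to HT25, a different name for each group; the field was followed, and a difference in line between the groups could not be checked. Ntoco itself had 0 rows in the table, so neither its knockdown nor its overexpression could be checked. Libraries held 18452588 to 19859041 counted reads, of which the members took 1.10 to 1.43%. Of the neuronal markers, Map2, Tubb3, Syn1, Gap43 and Nefl were listed and none exceeded 0.628 CPM (read counts scaled to library size) in any of the 8 libraries, while of the 4 fibroblast markers Col1a1 and Col1a2, collagen genes, had 209 to 1127 and 1043 to 3629 CPM, Pdgfra 28.3 to 87.1 CPM, and Dcn 0 in 7 libraries and 0.049 CPM in the other, so the neuronal markers were at or near 0 in cells labelled as a neuronal line. Knockdown library 2 and vector control library 1, from different groups, lay together at the top (11.6%) or at the bottom (13.2%) of the tested genes more often than any other pair of libraries, and the medians of complexes I and V and the ratios of the members that differ most in them are also given without them.

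Oxidative phosphorylation makes most of the ATP of a neuron. Complexes I and II take electrons from NADH and succinate, complex III passes them through cytochrome c to complex IV, which reduces oxygen, and complexes I, III and IV pump protons across the inner mitochondrial membrane. Complex V, the ATP synthase, lets the protons back and makes ATP. All complexes except complex II combine nuclear-encoded subunits, measured here, with subunits encoded in mitochondrial DNA. In many tissues the nuclear genes are transcribed with the help of NRF1, the ETS-family factor GABP and YY1.

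The promoter windows of 4 genes, chosen after their ratios were seen, are shown first as examples. Whether promoter elements bear on the ratios was not tested. RefSeq (GRCm38.p6, the same assembly as mm10) gave a window from 250 bases before to 50 bases after a transcript start for 70 of the 85 members, 75 windows in all. Capitals mark the letters searched on both strands: GCGCATGCG for NRF1, CCGGAAG for ETS factors, AAGATGGCG for YY1, and ACGTG or GCGTG, the core of the hypoxia response element, where overlapping matches run together. Ndufa8 lies on chromosome 2 at 36036324 to 36049338, Ndufa9 on chromosome 6 at 126821863 to 126849144, Ndufa7 on chromosome 17 at 33824572 to 33838316 and Cox5a on chromosome 9 at 57517328 to 57532427. Ndufa7 has a second window that overlaps the one shown, and the Cox5a window starts from a transcript inside the annotated gene.
Ndufa8, chr2:36049289-36049588, minus strand, with the NRF1 letters: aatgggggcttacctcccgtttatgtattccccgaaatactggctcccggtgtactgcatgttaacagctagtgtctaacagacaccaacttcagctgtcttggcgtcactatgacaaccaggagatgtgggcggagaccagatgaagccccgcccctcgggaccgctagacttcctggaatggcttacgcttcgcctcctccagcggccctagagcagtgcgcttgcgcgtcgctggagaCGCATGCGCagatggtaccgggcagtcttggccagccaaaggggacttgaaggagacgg
Ndufa9, chr6:126849095-126849394, minus strand, with the YY1 letters: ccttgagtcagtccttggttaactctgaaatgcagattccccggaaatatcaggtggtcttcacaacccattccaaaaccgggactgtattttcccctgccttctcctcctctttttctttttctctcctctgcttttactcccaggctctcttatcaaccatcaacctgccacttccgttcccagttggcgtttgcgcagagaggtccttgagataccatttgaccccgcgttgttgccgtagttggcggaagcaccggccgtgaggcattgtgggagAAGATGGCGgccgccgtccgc
Ndufa7, chr17:33824322-33824621, plus strand, with hypoxia-element letters: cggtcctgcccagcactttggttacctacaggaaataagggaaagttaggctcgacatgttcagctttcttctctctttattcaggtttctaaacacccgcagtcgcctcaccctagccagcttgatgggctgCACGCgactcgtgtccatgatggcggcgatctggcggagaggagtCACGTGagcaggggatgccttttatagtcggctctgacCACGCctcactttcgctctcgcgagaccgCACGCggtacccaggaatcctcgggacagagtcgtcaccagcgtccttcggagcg
Cox5a, chr9:57520982-57521281, plus strand, with hypoxia-element letters: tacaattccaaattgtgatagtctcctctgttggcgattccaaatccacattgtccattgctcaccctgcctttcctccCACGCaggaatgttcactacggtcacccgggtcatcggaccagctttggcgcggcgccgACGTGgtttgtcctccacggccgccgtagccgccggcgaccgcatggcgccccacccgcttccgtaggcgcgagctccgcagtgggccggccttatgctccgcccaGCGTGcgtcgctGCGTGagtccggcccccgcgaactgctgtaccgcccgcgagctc

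The NRF1 letters stood in 8 of the 75 members' windows (10.7%), against 1.75% of all windows in the table and 3.57% of those of tested genes. The YY1 letters stood in 7 (9.33%, against 1.40% and 2.98%), 5 of them in complex I and 2 in complex V. The ETS letters stood in 17 (22.7%, against 8.86% and 17.7%), and the hypoxia-element letters in 49 (65.3%, against 43.8% and 61.1%). The Sp1 letters GGGCGG, left in lower case above, stood in 38.7% of members' windows, against 35.7% of all windows and 61.0% of those of tested genes. These matches describe the letters and not bound sites, and no factor's binding was measured.

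Levels were compared between genes as FPKM, which divides the count by gene length and by library size. Complex V held the most abundant members: Atp5b, the catalytic beta subunit of the ATP synthase, averaged 876 FPKM over the 8 libraries and Atp5a1, the alpha subunit, 678. Cox8a and Cox6a1, small subunits, were the highest members of complex IV with 475 and 382. Cox4i1 of complex IV, which is outside the rule, had 484 to 559 FPKM in the 8 libraries. The median member stood at 79.6 FPKM in complex I (36 genes), 120 in complex II (4), 137 in complex III (8), 143 in complex IV (15 tested) and 173 in complex V (17). Complex I ranged from 28.0 for the accessory subunit Ndufb2 to 164 for the accessory subunit Ndufb9. Its 7 core subunits, which form the catalytic arm with the flavin and the iron-sulfur clusters, lay between 48.4 for Ndufs7 and 97.7 for Ndufs3. The 4 subunits of succinate dehydrogenase were close together, from 105 for Sdhc, a membrane anchor, to 162 for Sdhd, the other anchor. Levels at or below 10 FPKM were found for 8 members: the isoforms Cox7b2, Cox7a1 and Ndufa4l2, the untested Cox6b2 and Cox8b, and the copies Ndufb4b, Ndufb4c and Ndufs6b. For these copies, 1 of which (Ndufs6b) RefSeq calls a pseudogene, the counted length equals the genomic span, and since near-identical sequences may share or lose reads when reads are assigned, the levels of the copies and of Ndufb4 and Ndufs6 are uncertain.

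**Figure D1:**
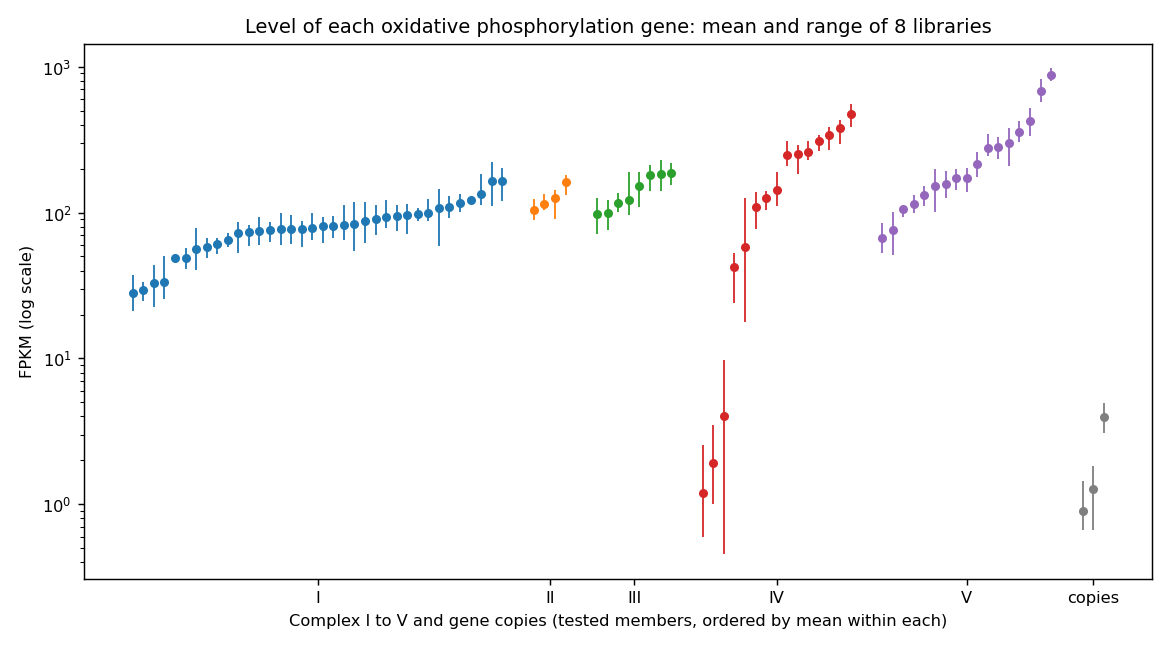
Mean FPKM over the 8 libraries (points) and lowest to highest library (lines) of the 83 tested members, on a log axis, ordered within each complex. The 3 low points of complex IV are Cox7b2, Cox7a1 and Ndufa4l2, and the highest point is Atp5b at 876 FPKM.

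The Ntoco overexpression libraries had more subunit RNA than the vector control libraries in all 5 complexes, but for 0 of 83 members did the difference pass the test. The edgeR quasi-likelihood test with Benjamini-Hochberg adjustment gave a lowest adjusted p of 0.598 among members, and it called 0% of all tested genes. The median log2 ratio of the members was 0.29 (78 of 83 above 0), against -0.0059 for all tested genes. Summed FPKM was 2777 and 2595 with the vector and 3456 and 3040 with overexpression in complex I, 447 and 467 against 571 and 517 in complex II, and 1163 and 1045 against 1289 and 1180 in complex III. It was 2378 and 2463 against 3126 and 2851 in complex IV, and 3939 and 4165 against 5413 and 4736 in complex V, so the groups did not overlap in any complex. Both overexpression libraries lay above both vector libraries for 50 of 83 members (60.2%, against 24.1% of all tested genes), and below for 0 (against 23.1%). At an unadjusted p under 0.05, 9 members were higher (10.8%, against 3.53% of all genes) and 0 lower (against 4.09%). These were Ndufa5, Ndufa8, Ndufa9, Ndufb5 and Ndufc2 of complex I, Cox7a2 and Ndufa4 of complex IV, and Atp5j and Atp5mpl of complex V. Leaving out overexpression library 1 brought the median to 0.17 and the 9 members to 0, with 5 members then lower. Leaving out vector library 1 gave a median of 0.33. With a library fewer, more genes have non-overlapping groups by construction, so the 5 lower members cannot be set against the shares above.

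All 17 members of complex V had a log2 ratio above 0, with a median of 0.31 and a range of 0.13 to 0.80. For 16 of 17 both overexpression libraries were higher (94.1%, against 24.1% of all tested genes). Atp5a1 had 1507 and 1558 CPM with the vector against 2042 and 1717 with overexpression (log2 ratio 0.29 ± 0.19 SE). Atp5b had 1568 and 1604 CPM against 1874 and 1714 (0.18 ± 0.16). The groups were apart for both of these subunits, with overexpression library 1 highest of all 8. Atp5c1, the gamma subunit that turns inside the catalytic head, had 189 and 263 CPM against 369 and 283 (0.53 ± 0.24). Atp5mpl, a small membrane subunit, had 38.9 and 40.4 CPM with the vector against 75.4 and 62.7 with overexpression. Its log2 ratio of 0.80 ± 0.26 (edgeR unadjusted p = 0.0144, adjusted p = 0.598) was the highest of complex V. The shRNA controls, with 62.1 and 51.4 CPM of Atp5mpl, lay between these groups. Atp5j, coupling factor 6 of the peripheral stalk, had 85.1 and 85.4 CPM against 132 and 110 (0.50 ± 0.19). The delta subunit Atp5d had the lowest ratio, with 191 and 195 CPM against 212 and 210 (0.13 ± 0.16). The 3 genes Atp5g1, Atp5g2 and Atp5g3, which encode the same mature c-ring protein, had log2 ratios of 0.32, 0.29 and 0.29, and Atp5g2 was the complex V member whose groups overlapped.

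In the overexpression comparison 34 of 36 complex I members had a log2 ratio above 0. The median was 0.24 (0.15 without overexpression library 1). Both overexpression libraries were higher for 20 of 36 (55.6%, against 24.1% of all tested genes) and lower for 0 (against 23.1%). Ndufa8, an accessory subunit at the intermembrane face, was furthest from 0: it had 49.4 and 69.4 CPM with the vector against 118 and 92.9 with overexpression. The log2 ratio was 0.83 ± 0.29 (edgeR unadjusted p = 0.0211, adjusted p = 0.598). Vector library 1 was the lowest of all 8 libraries for this gene, and shRNA control library 1 reached 105 CPM, within the overexpression range. Ndufb5, a membrane-arm subunit, had 58.7 and 73.5 CPM against 124 and 96.3 (0.74 ± 0.26). Ndufa5, of the matrix arm, had 35.9 and 38.3 CPM against 66.7 and 52.9 (0.69 ± 0.23). Ndufa9, near the quinone-binding site, had 89.2 and 96.5 CPM against 151 and 125 (0.57 ± 0.21), above all other libraries, the highest of which had 112. The 7 core subunits had a median of 0.21, from 0.016 for Ndufs3 to 0.39 for Ndufv2, and 5 of 7 were higher in both libraries. The 29 accessory subunits had a median of 0.25, from -0.10 to 0.83, and 15 of 29 were higher in both libraries. Ndufs1, the largest of the core subunits, had 165 and 197 CPM against 217 and 201 (0.21 ± 0.17). Ndufa7 was lowest at -0.10 ± 0.26. Without vector library 1 the complex I median was 0.35, with Ndufa8 at 0.61 ± 0.35 and Ndufa7 at 0.29 ± 0.26.

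Complexes II, III and IV differed in how even they were. In complex II all 4 log2 ratios were above 0, from 0.19 for the iron-sulfur subunit Sdhb to 0.29 for Sdhd, and Sdha, the flavoprotein that oxidises succinate, was the 1 whose groups overlapped. Sdhb had 126 and 123 CPM with the vector against 147 and 136 with overexpression. In complex III, 7 of 8 were above 0 but only Uqcr11, a small subunit, did not overlap, with 32.4 and 43.1 CPM against 56.2 and 46.3 (0.44 ± 0.23). Uqcrc1 and Uqcrc2, the core proteins, had log2 ratios of 0.19 and 0.13, and Uqcrfs1, the Rieske iron-sulfur protein, 0.33. In complex IV, 13 of 15 were above 0 and 10 of 15 were higher in both libraries (66.7%). That share was 75% in complex II and 12.5% in complex III, against 24.1% of all tested genes. Cox7a2 had 60.6 and 76.3 CPM against 106 and 94.3 (0.55 ± 0.22), and Ndufa4, first assigned to complex I and now counted in complex IV, had 95.8 and 113 against 148 and 140 (0.46 ± 0.20). Cox5a, which binds the core of the enzyme, had 79.0 and 124 CPM against 158 and 156 (0.63 ± 0.30), and here too the shRNA control libraries, with 168 and 154, were level with the overexpression libraries. Without vector library 1 the ratio of Cox5a was 0.34 ± 0.33. Cox5b, another subunit of complex IV, stood at -0.0077 ± 0.19.

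**Figure D2:**
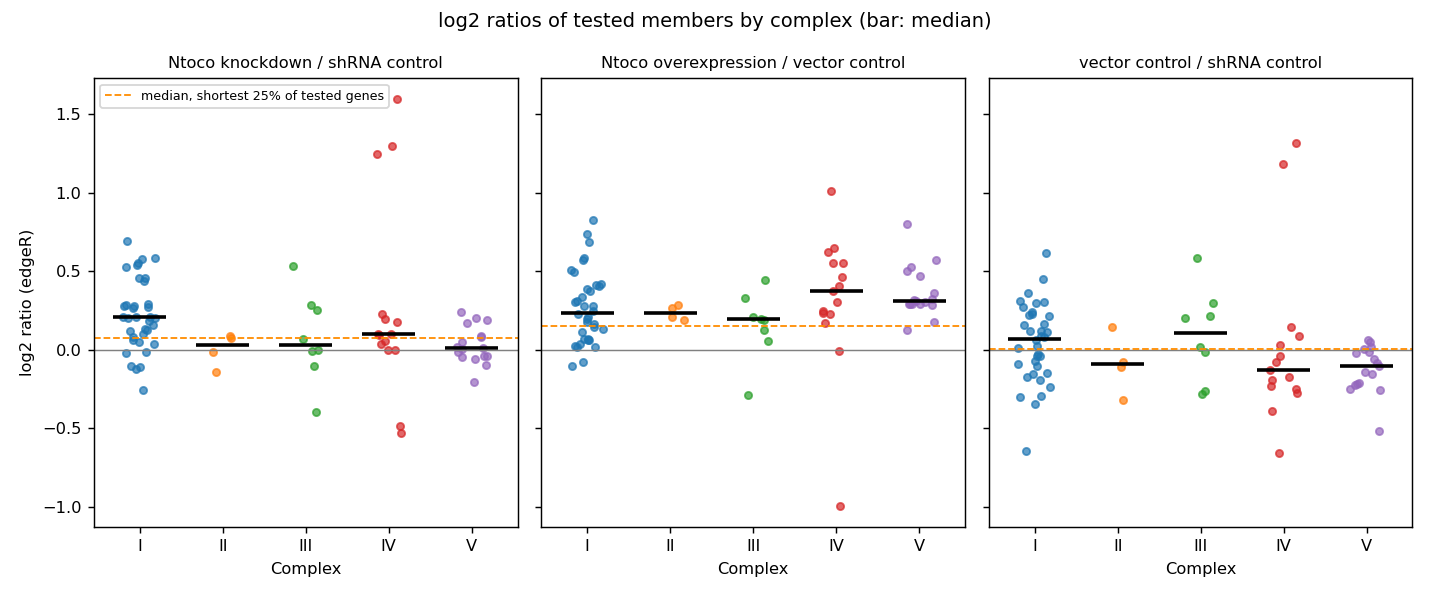
Log2 ratio of each tested subunit gene (points) by complex in 3 comparisons, with the median of each complex (black bar) and the median of the shortest genes (dashed line; the shortest 25% of tested genes). In the overexpression panel all 17 points of complex V lie above 0; in the knockdown panel complex I has the highest median, 0.21.

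In the Ntoco knockdown comparison complex I had the highest median of the 5 complexes, with both knockdown libraries above both shRNA control libraries for 19 of its 36 members and below for 2. For 0 of 83 members did a difference pass the test (edgeR, lowest adjusted p = 0.992, with 0% of all tested genes called). The median of all members was 0.10 (59 of 83 above 0), against 0.0055 for all tested genes. Both knockdown libraries lay above both controls for 27 members (32.5%, against 15.1% of all tested genes) and below for 7 (8.43%, against 14.1%). At an unadjusted p under 0.05, 4 members were higher (4.82%, against 1.51%) and 0 lower (against 1.61%), and all 4 belonged to complex I. Summed FPKM was 2831 and 2623 in the controls and 3215 and 3233 with knockdown in complex I, and 2766 and 2569 against 3031 and 2846 in complex IV, with overlapping sums in complexes II, III and V. By complex the medians were 0.21 for complex I (30 of 36 above 0), 0.029 for II, 0.032 for III, 0.10 for IV (11 of 15 above 0) and 0.0087 for V. The complex I median was 0.32 without shRNA control library 1 and 0.11 without control library 2. It was 0.21 without knockdown library 2. The count of 4 members higher at an unadjusted p under 0.05 became 0 without control library 2, 1 without knockdown library 2, and 2 without control library 1 or without either overexpression library. Without knockdown library 1 there were 3 higher and 2 lower, and without either vector library 5 higher and 0 lower. Leaving out shRNA control library 1 gave a median over all members of 0.27, with 56 members above and 9 below, and leaving out control library 2 gave 0.018, with 29 above and 25 below. Without knockdown library 1 the median was 0.032, with 33 above and 21 below. Without knockdown library 2 it was 0.15, with 49 above and 10 below. With a library fewer, more genes have non-overlapping groups by construction.

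Within complex I the accessory subunits had the higher median. The 29 accessory members had a median of 0.26 (25 above 0, 17 with both libraries higher, 1 lower), and the 7 core members 0.05 (5 above 0, 2 with both libraries higher, 1 lower). Both knockdown libraries were higher for 15.1% and lower for 14.1% of all tested genes. The accessory genes were also shorter than the core genes, with a median of 677 counted bases against 1608, and the difference between the 2 sets was not tested. Among the shortest 10% of tested genes, 26.7% were higher and 7.01% lower in both knockdown libraries. Ndufa7 was highest, with 66.8 and 56.8 CPM in the controls against 87.7 and 112 with knockdown. Its log2 ratio was 0.69 ± 0.27 (edgeR unadjusted p = 0.0315, adjusted p = 0.992). The vector libraries had 118 and 72.0 CPM of Ndufa7 with no knockdown, a range that spans the knockdown values. Ndufa12, a matrix-arm subunit, had 42.5 and 44.7 CPM against 65.3 and 65.1 (0.58 ± 0.21), with the knockdown libraries nearly equal and well apart from the controls. Ndufa2 had 37.1 and 36.2 CPM against 52.3 and 55.1 (0.55 ± 0.22), and Ndufb1, the shortest gene of the complex, 20.5 and 17.2 against 26.9 and 28.0 (0.54 ± 0.21). The overexpression libraries were in or near the knockdown range for these 3 genes. Ndufa12 reached 83.3 and 59.3 CPM there, Ndufa2 51.8 and 49.2, and Ndufb1 28.5 and 29.4. The vector libraries had 55.8 and 51.8 CPM of Ndufa12 and 53.0 and 37.2 of Ndufa2, above both shRNA controls. Their 24.2 and 20.4 CPM of Ndufb1 overlapped the shRNA controls. For Ndufa7, Ndufa12 and Ndufa2 the shRNA controls were thus the lowest of all libraries. The part of these low control values in the knockdown ratios was not tested. Ndufs1 instead had the lowest knockdown ratio of the complex (-0.26 ± 0.18), with 216 and 210 CPM in the controls against 185 and 172.

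Outside complex I, both knockdown libraries were higher for 2 and lower for 1 of the 8 members of complex III. The counts were 2 and 1 of 15 in complex IV, and 3 and 2 of 17 in complex V. Of all tested genes, 15.1% were higher and 14.1% lower. Uqcrc1 was lower in both knockdown libraries, with 354 and 328 CPM against 296 and 222 (-0.40 ± 0.21). Uqcrq, known as a ubiquinone-binding subunit, had 147 and 142 CPM in the controls, 143 in knockdown library 1 and 276 in knockdown library 2 (0.54 ± 0.33), so the groups overlapped. Cox5a was lower in both, with 168 and 154 CPM against 144 and 85.5 (-0.49 ± 0.30). Without knockdown library 2 the ratios were -0.20 ± 0.22 for Uqcrc1, -0.018 ± 0.28 for Uqcrq and -0.16 ± 0.29 for Cox5a, and the complex V median was 0.17. Atp5a1 (-0.20 ± 0.19) and Atp5b (-0.094 ± 0.16) were the 2 complex V members with both knockdown libraries lower, while the epsilon subunit Atp5e, at 0.24 ± 0.20, had both higher. In complex II no groups were apart, and the ratios lay between -0.14 for Sdha and 0.089 for Sdhc.

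The test of the difference between the overexpression and the knockdown log2 ratio used all 4 groups and called 0 members (edgeR, lowest adjusted p = 0.65, with 0% of all tested genes called). At an unadjusted p under 0.05, 4 members were higher (4.82%, against 3.57% of all genes) and 0 lower (against 3.35%): Cox5a (difference 1.11 ± 0.42), Ndufa8 (0.95 ± 0.41), Atp5mpl (0.85 ± 0.36) and Ndufa9 (0.68 ± 0.29). The median difference was 0.18 over all members, 0.35 in complex V, where 17 of 17 were above 0, and -0.003 in complex I, where 17 of 36 were above 0. Complex I thus had medians of 0.24 and 0.21 in the 2 comparisons and complex V 0.31 and 0.0087. Lowest was Cox6a2, at -2.24 ± 1.01, which was -1.05 ± 0.89 without knockdown library 2 and -1.41 ± 1.04 without vector library 1. Cox5a stood at 0.79 ± 0.38 and 0.82 ± 0.43, and Ndufa8 at 0.68 ± 0.39 and 0.73 ± 0.44. The count of 4 higher members became 0 without shRNA control library 1, knockdown library 2, vector library 1 or overexpression library 1, 1 without control library 2, 2 without vector library 2 or overexpression library 2, and 9 without knockdown library 1. Lower members, of which there were 0 with all libraries, then numbered 1 without control library 2, 3 without vector library 2 and 3 without knockdown library 1. The complex V median difference was 0.22 without shRNA control library 1, 0.50 without control library 2, 0.25 without knockdown library 2 and 0.31 without vector library 1, and its knockdown median was 0.18 and -0.087 without the control libraries.

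The 2 control groups, which carry no change of Ntoco, differed from each other too. Vector against shRNA control gave a median of -0.039 over the members, with 11 higher in both libraries (13.3%, against 24.6% of all tested genes) and 22 lower (26.5%, against 26.5%), shares below and equal to the background. By edgeR 0 members were called (lowest adjusted p = 0.397, 0% of all tested genes). At an unadjusted p under 0.05 there was 1 higher, Ndufa7 (0.62 ± 0.27, against 6.45% of all genes), and 0 lower (against 6.10%). Ndufa8 (-0.64 ± 0.29), Cox5a (-0.66 ± 0.30) and Atp5mpl (-0.52 ± 0.26), all higher in the overexpression comparison, were among the lowest here; the 2 comparisons share the vector libraries. Leaving out shRNA control library 1 turned the median to 0.086, and leaving out control library 2 gave -0.12.

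Between the 2 libraries of the same group, the median absolute log2 ratio was 0.20, 0.18, 0.24 and 0.17 over the members in the control, knockdown, vector and overexpression groups, beside group medians of 0.10 and 0.29. Relative to each gene's mean over the 8 libraries, the median member stood at 0.25 in overexpression library 1 and 0.086 in overexpression library 2, on the log2 scale. It stood at 0.016 in shRNA control library 1 but at -0.22 in control library 2, and at 0.099 and -0.014 in the knockdown libraries. The vector libraries stood at -0.059 and -0.14. Overexpression library 1 was the highest of all 8 for 54 of 83 members (65.1%, against 13.5% of all tested genes), and shRNA control library 2 was the lowest for 35 (42.2%, against 10.6%). Chosen after the values were seen, the pair of knockdown library 1 and overexpression library 1, from opposite treatments, held the 2 highest values for 27 members (32.5%, against 6.33% of all genes). The pair of both overexpression libraries did so for 18 (21.7%, against 5.44%). Control library 2 and vector library 2 held the 2 lowest values for 22 (26.5%, against 2.91%).

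**Figure D3:**
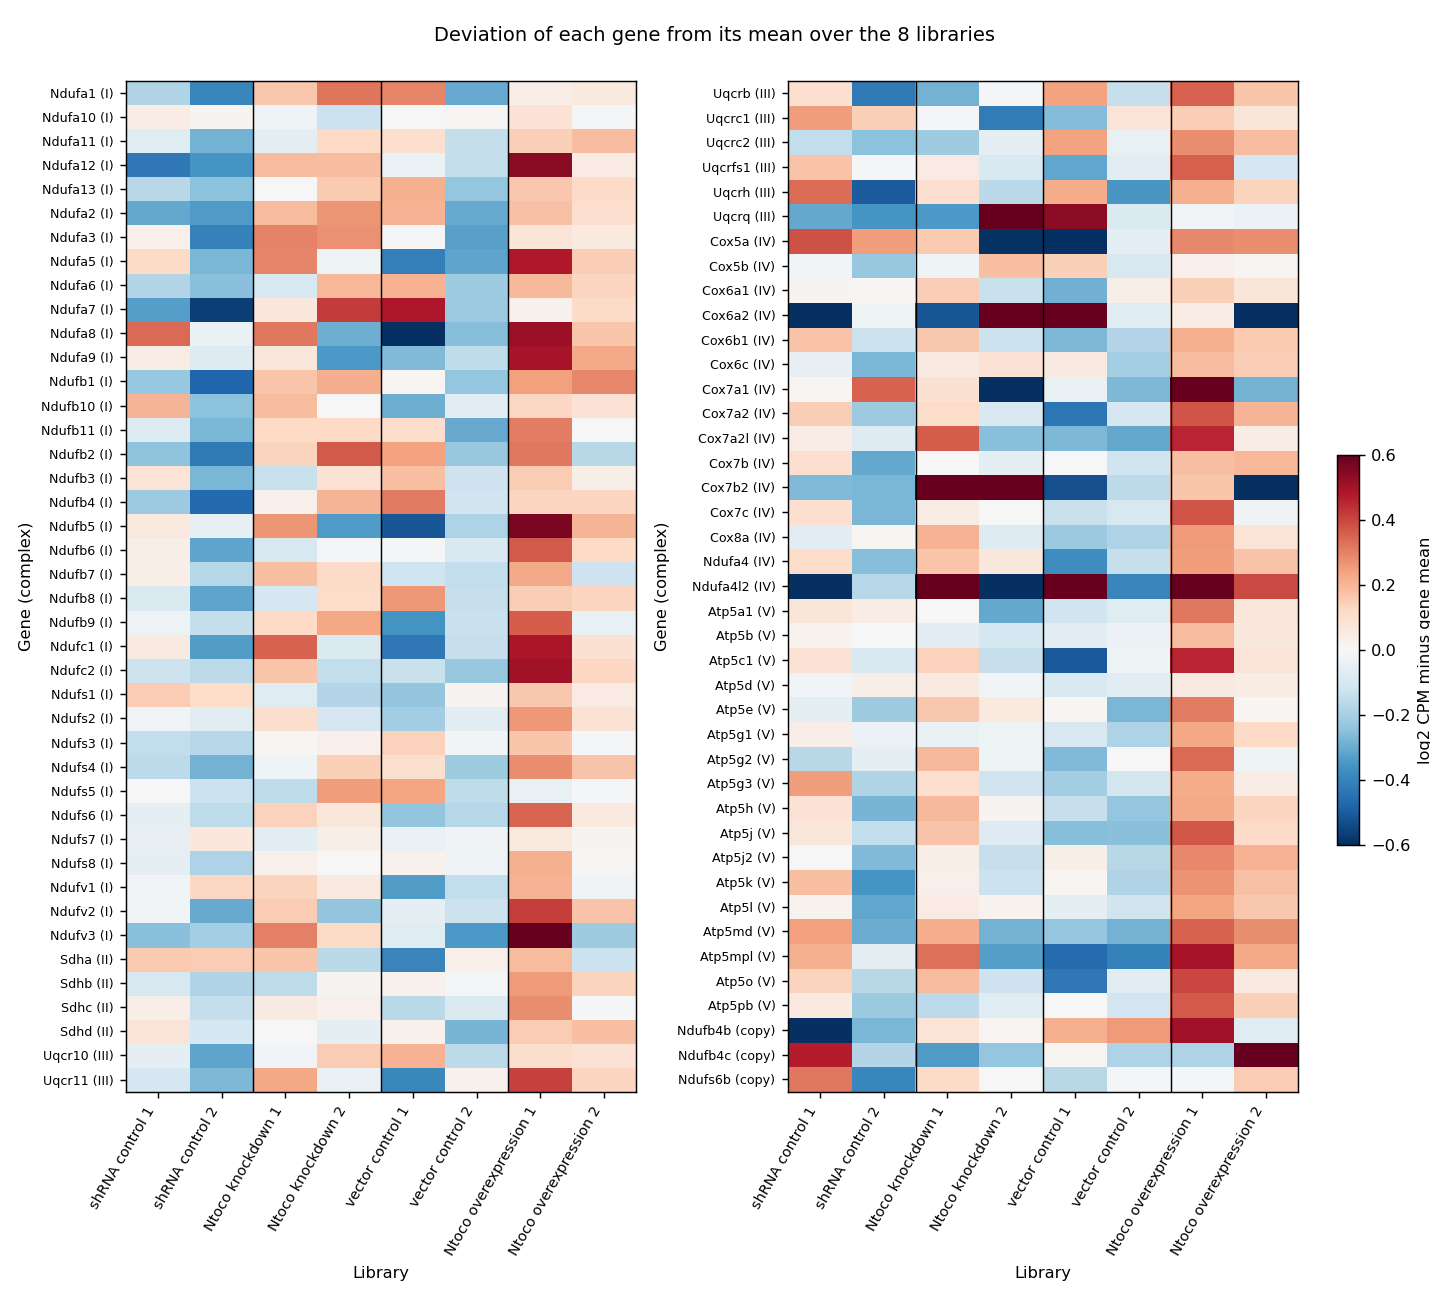
Log2 CPM of each tested subunit gene minus its mean over the 8 libraries, by library (columns, grouped by black lines) and gene (rows, with the complex in brackets). Overexpression library 1 is red for most genes and shRNA control library 2 blue, with medians of 0.25 and -0.22.

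Knockdown library 2 and vector library 1 shared a second pattern that split the subunits. For 15 members both libraries lay more than 0.1 above the gene's mean, 11 of them in complex I, 2 in complex III and 2 in complex IV. For 17 both lay as far below: 6 in complex V, 5 in complex I, 4 in complex IV, 1 in complex II and 1 in complex III. Complexes I, III and IV thus had members on both sides. The share of all tested genes beyond 0.1 was not counted. Uqcrq had 276 and 264 CPM in these libraries and 142 to 179 in the other 6, and Cox6a2 79.3 and 76.7 against 11.7 to 32.7. Cox5a was the reverse, with 85.5 and 79.0 CPM against 124 to 168, and Uqcrc1 had 222 and 248 against 296 to 354. The same pair held the 2 highest values for 12% of members and 11.6% of all genes, and the 2 lowest for 14.5% and 13.2%, so members took part about as often as other genes.

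Isoform genes of complex IV showed the widest range. Cox6a2 is the heart and muscle form and Cox6a1 the ubiquitous form of one subunit. Cox6a2 took 4.43 and 11% of the FPKM of the pair in the shRNA control libraries, 7.41 and 25.8% in the knockdown, 27.2 and 10.5% in the vector and 10.5 and 7.32% in the overexpression libraries. The highest shares were those of knockdown library 2 and vector library 1, and Cox6a1 stayed between 297 and 430 FPKM. Ndufa4l2, the hypoxia-induced relative of Ndufa4, had 0.45 and 2.61 FPKM in the control, 8.12 and 1.16 in the knockdown, 4.43 and 2.12 in the vector and 9.70 and 3.72 in the overexpression libraries. It never exceeded 3.23% of the pair, and its log2 ratios of 1.60 ± 1.06 and 1.01 ± 1.02 in the knockdown and overexpression comparisons were within the spread (edgeR adjusted p = 0.992 and 0.713). Pdk1, the hypoxia-induced kinase that inhibits pyruvate dehydrogenase, was likewise highest in knockdown library 1 (64.1 CPM) and overexpression library 1 (97.6 CPM), against 15.1 to 31.5 elsewhere. No set of hypoxia genes was examined here, and a shared response of Pdk1 and Ndufa4l2 to hypoxia was not tested. Cox7a1, a muscle form, took 0.94 to 2.48% of its pair with Cox7a2, and the testis form Cox7b2 0.42 to 2.0% of its pair with Cox7b. Cox7b2 had 0.47 CPM in both control libraries and 0.99 and 1.33 in the knockdown libraries (1.30 ± 0.57), at a level of few reads.

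**Figure D4:**
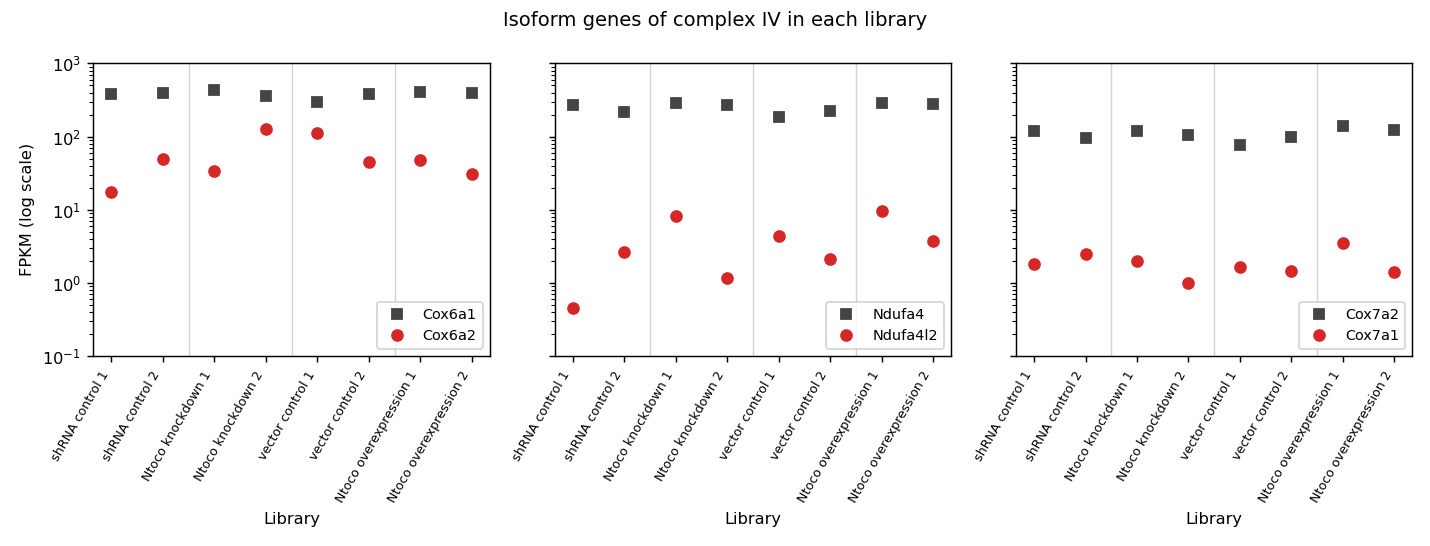
FPKM of 3 isoform pairs of complex IV in each library, on a log axis. The minor form Cox6a2 (red, left) ranges from 17.7 to 126 FPKM while Cox6a1 (grey) stays between 297 and 430.

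Subunit genes are short, and short genes as a class moved with the same libraries. Of the 83 tested members, 76 lay among the shortest 25% of tested genes (293 to 2164 counted bases) and 64 among the shortest 10%. In the overexpression comparison the median log2 ratio of all genes was 0.15 in the shortest 25%, 0.20 in the shortest 10% and -0.18 in the longest 25%. The 76 members among the shortest 25% had a median of 0.29, and 59.2% of them, against 36.8% of all genes of that class, were higher in both libraries. In the knockdown comparison the shortest 25% had a median of 0.078 and its members 0.10, with 21.2 and 34.2% higher in both libraries. The shortest 10% had a median of 0.12 and its members 0.13, with 26.7 and 37.5% higher in both libraries. Among highly expressed genes of the shortest 25% (701 genes) the median was 0.18 in the overexpression and 0.028 in the knockdown comparison. Overexpression library 1 had the shortest 25% at 0.12 and the longest at -0.13 relative to the gene means, and shRNA control library 2 the reverse, at -0.096 and 0.11. The part of gene length in the members' differences was not tested.

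**Figure D5:**
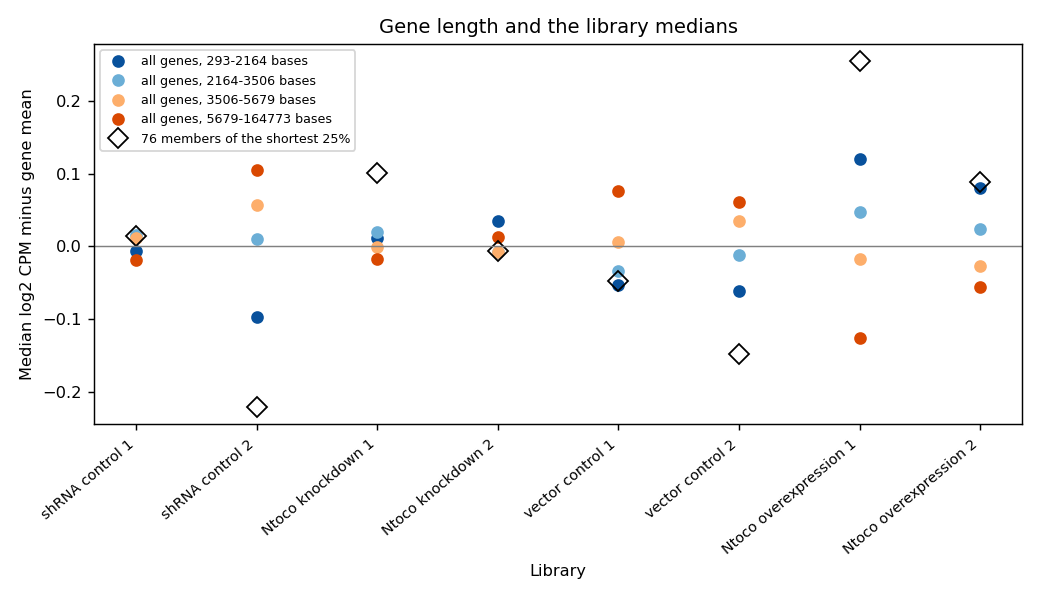
Median log2 CPM minus the gene mean in each library for all tested genes in 4 length classes of 25% each (filled points) and for the 76 subunit genes of the shortest class (open diamonds). In overexpression library 1 and shRNA control library 2 the classes fan out in opposite order, and the diamonds lie beyond the shortest class.

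Other genes of the pathway, from lists drawn up with earlier results known, had 0 called members in all 4 contrasts by edgeR. Of 51 tested assembly factors, 25 were higher and 6 lower in both overexpression libraries (median 0.17), where 24.1% of all tested genes were higher and 23.1% lower. In the knockdown 15 were higher and 3 lower (median 0.11), where the shares of all tested genes were 15.1 and 14.1%. Uqcc3, an assembly factor of complex III, had 4.81 and 5.97 CPM with the vector against 9.63 and 9.98 with overexpression (0.86 ± 0.29), against 8.38 and 8.56 in the shRNA controls. Of 24 genes of the citric acid cycle and pyruvate dehydrogenase, 8 were lower and 4 higher in both knockdown libraries (median -0.080), beside 14.1 and 15.1% of all tested genes. Pdhb, the beta subunit of pyruvate dehydrogenase, had 161 and 166 CPM in the controls against 76.9 and 98.2 with knockdown (-0.90 ± 0.20, edgeR unadjusted p = 0.00218, adjusted p = 0.992). Citrate synthase, Cs, had 482 and 420 CPM against 325 and 220 (-0.73 ± 0.27), and Idh3a, a subunit of isocitrate dehydrogenase, 230 and 175 against 137 and 137 (-0.56 ± 0.19). The vector libraries, with no knockdown, were also below both shRNA controls for these genes. They had 128.4 and 156 CPM of Pdhb, 269.6 and 397.4 of Cs, and 146.9 and 162.5 of Idh3a. The 2 lowest Cs values were those of knockdown library 2 and vector library 1. The same list had a median of 0.18 in the overexpression comparison, where 7 of 24 were higher in both libraries, a share near the 24.1% of all tested genes, and 2 lower.

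The 18 tested regulators of mitochondrial genes had medians below 0 in both treatment comparisons. Their median was -0.15 in the knockdown and -0.17 in the overexpression comparison, and in the latter 2 had both libraries higher and 5 both lower, the lower share being near the 23.1% of all tested genes (24.1% were higher). Nrf1 (0.082 ± 0.20), Gabpa (0.065 ± 0.17) and Yy1 (-0.48 ± 0.34), whose letters were searched above, had overlapping groups in the overexpression comparison. Ppargc1a, the coactivator of mitochondrial biogenesis, had 6.58 and 5.82 CPM with the vector against 9.68 and 10.8 with overexpression (0.72 ± 0.38), and its relative Pprc1 142 and 159 against 70.8 and 100 (-0.81 ± 0.23, edgeR unadjusted p = 0.00763, adjusted p = 0.598). Tfam, which packages and transcribes mitochondrial DNA, had 42.9 and 39.9 CPM in the shRNA controls, 26.3 and 36.5 with knockdown, 68.5 and 64.2 with the vector and 64.8 and 51.8 with overexpression, so that the control groups differed more (0.68 ± 0.23) than either treatment from its own control. The 5 tested subunits and partners outside the rule had medians of 0.012 and 0.10, and Cyc1, cytochrome c1 of complex III, was lower in both knockdown libraries (-0.21) and higher in both overexpression libraries (0.27).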

How the data were processed

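RNA was sequenced from HT22 cells with a stranded library kit that selects polyadenylated RNA, per the labels' protocols. The authors deposited whole-number read counts per gene and FPKM values; in 83 of 83 members counted in all libraries the FPKM equalled the count divided by length and library total within 1%. HISAT2, HTSeq, Trimmomatic, Cufflinks, DESeq and the build mm10 are named, per the submitters' processing notes; versions and strand setting: not given in the sources used here, so overlapping genes on opposite strands cannot be told apart. Each column was placed in a group through its name, and 0 were left out. Counts were fitted with edgeR 4.0.16 (R 4.3.3): filterByExpr (minimum count 10), TMM scaling, quasi-likelihood F-test over all 12115 tested genes and 8 libraries, Benjamini-Hochberg threshold 0.05. Residual degrees of freedom were 4 and the common biological coefficient of variation 28.0%, which limits precision more than depth does. Ratios are log2 ± SE; CPM are TMM-scaled. DESeq2 1.42.0, other scalings, no filter, only the groups compared, a replicate block and leaving out each of 8 libraries were alternatives. The scripts were tested on simulated data. Members and lists were chosen with earlier results of these data known. Genes named are core, catalytic and isoform subunits, the highest and lowest ratio of each complex, genes at an unadjusted p under 0.05 and fixed regulators; others named for an even or opposite pattern were chosen after their values were seen. Promoter windows are from RefSeq.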

Additional observations from a re-analysis of the deposited data

How the results depend on the processing

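No member was called under any alternative, scaling, filter, tool or left-out library; DESeq2 called 15, 1, 281 and 12 genes of all in the knockdown, overexpression, vector and difference contrasts and 0 members. Leaving out each of the 8 libraries in turn gave a median of the members from 0.018 to 0.27 for the knockdown, from 0.17 to 0.36 for overexpression and from -0.12 to 0.086 for the vector comparison, where the sign turned; the cause was not tested. Where a library is left out the lone one is assumed to vary like the other groups. Members with all libraries higher then numbered 26 to 56 in the knockdown and 11 to 37 in the vector comparison, and members with all libraries lower 7 to 25, 0 to 14 and 22 to 48 in the knockdown, overexpression and vector comparisons. These counts grow by construction with fewer libraries, and the overexpression count of members higher ran from 51 to 74. With the replicate block, the medians were 0.096, 0.29, -0.028 and 0.17, and it changed no call. The deviations of same-numbered libraries correlated from -0.36 (knockdown with vector) to 0.36 (shRNA control with knockdown). With 2 libraries per group, these values cannot settle whether the numbers pair the samples. Total counts alone moved the vector median to -0.10, with all genes at -0.066. Of 2693 values of 49 named members under the alternatives, 0 reversed by more than their standard error in both fits. Depth leaves Cox7a1, Cox7b2, Ndufa4l2 and the gene copies least certain.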
